A study of Homo sapiens with 12 samples.

Results

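Mitochondrial ribosomal protein genes were taken as the rows of the gene table whose symbol is MRPL or MRPS followed by a number and, in a few, a letter A to C. The rule picked 78 genes of 59577 in the table, of which 49 are named for the large subunit (MRPL) and 29 for the small subunit (MRPS). It uses the symbol only and no measured value.

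The mitochondrial ribosome, or mitoribosome, translates the messenger RNAs encoded by mitochondrial DNA, all of which specify subunits of the oxidative phosphorylation complexes. Its proteins are encoded in the nucleus, made in the cytosol and imported, whereas both of its ribosomal RNAs are transcribed from mitochondrial DNA. Some of its proteins descend from bacterial ribosomal proteins and others have no bacterial counterpart.

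The samples were H1299 cells, an established human line of non-small-cell lung carcinoma that the labels call lung adenocarcinoma. Of the 12 samples, 6 were kept for 24 h in hyperoxia, a gas mixture of 60% oxygen, 5% carbon dioxide and 35% nitrogen. The other 6 were in normoxia, with 21% oxygen, 5% carbon dioxide and 74% nitrogen. No genetic change or further agent is named in either group, and all samples are of 1 line. The labels do not say whether samples of a group were separate cultures, so the p-values speak for the spread among these samples alone, and that spread could be technical. Values are in TPM, a length-scaled share of all transcripts in a sample, and sequencing depth is unknown because TPM keeps none.

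Each sample had 14275 to 14635 genes at or above 1 TPM. KRT8 averaged 598 TPM and KRT18 averaged 951 TPM over the 12 samples, both keratins of simple epithelium, and VIM, a mesenchymal filament, averaged 3180 TPM. EPCAM, KRT19 and NKX2-1 were under 1 TPM in every sample and SFTPC was listed at 0 in all. Of the line markers looked up, these were absent or near absent, whereas KRT8, KRT18 and VIM were high. Of 11 markers of other cell types, 9 averaged below 1 TPM, and CD3E and HBB were listed at 0. Their summed level was 40.3 to 55.3 TPM in hyperoxia and 41.0 to 51.6 TPM in normoxia, nearly all of it CD68. On the first 2 principal components, with 20.7% and 11.7% of the variance, normoxia replicates 1 to 3 lay apart from normoxia replicates 4 to 6. No label names a batch for that split, so counts of members are given with and without each set.

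All 78 members were expressed in these cells. Their levels, as means over the 12 samples, had a median of 80.4 TPM, against 13.9 TPM for the 14520 genes with a mean of at least 1 TPM that entered the test. MRPL genes had a median level of 90.9 TPM and MRPS genes 76.2 TPM, and 31 members were at or above 100 TPM. The highest member lay 21.6-fold above the lowest, although their products are parts of one particle. The 3 highest were MRPL51 (348 TPM), MRPL41 (291 TPM) and MRPS24 (280 TPM), and the 3 lowest were MRPL30 (21.4 TPM), MRPS14 (18 TPM) and MRPL50 (16.1 TPM).

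Mitoribosomal protein transcripts were more often higher than lower in hyperoxia, and the changes were small. Of 78 members, 24 rose (30.8%), 2 fell (2.56%) and 52 did not pass the test. Over all 14520 genes tested, 11.7% rose and 5.63% fell. Those shares depend on the level of the genes counted. Among the 10554 genes with a mean of at least 5 TPM, 15.5% rose and 7.35% fell. With that filter 25 members rose and 2 fell. With TPM rescaled by median-of-ratios factors, 16 members rose and 3 fell, and over all genes 9.11% rose and 8.51% fell. The test, in each case, was limma on log2(TPM + 1) across all genes kept, with a Benjamini-Hochberg adjusted p below 0.05 as the threshold. The members' median difference was 0.09 on that log2 scale, with 57 members above 0 and 21 below. For all genes tested the median was 0.03, with 8296 genes above 0 and 6224 below. Increases that passed ran from 0.15 (10.9%) to 0.43 (34.9%) on the log2 scale. Standard errors of the members' differences ran from 0.03 to 0.11 with a median of 0.05. In bulk RNA, a change in the number of cells of a type and a change in RNA per cell cannot be told apart.

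**Figure D1:**
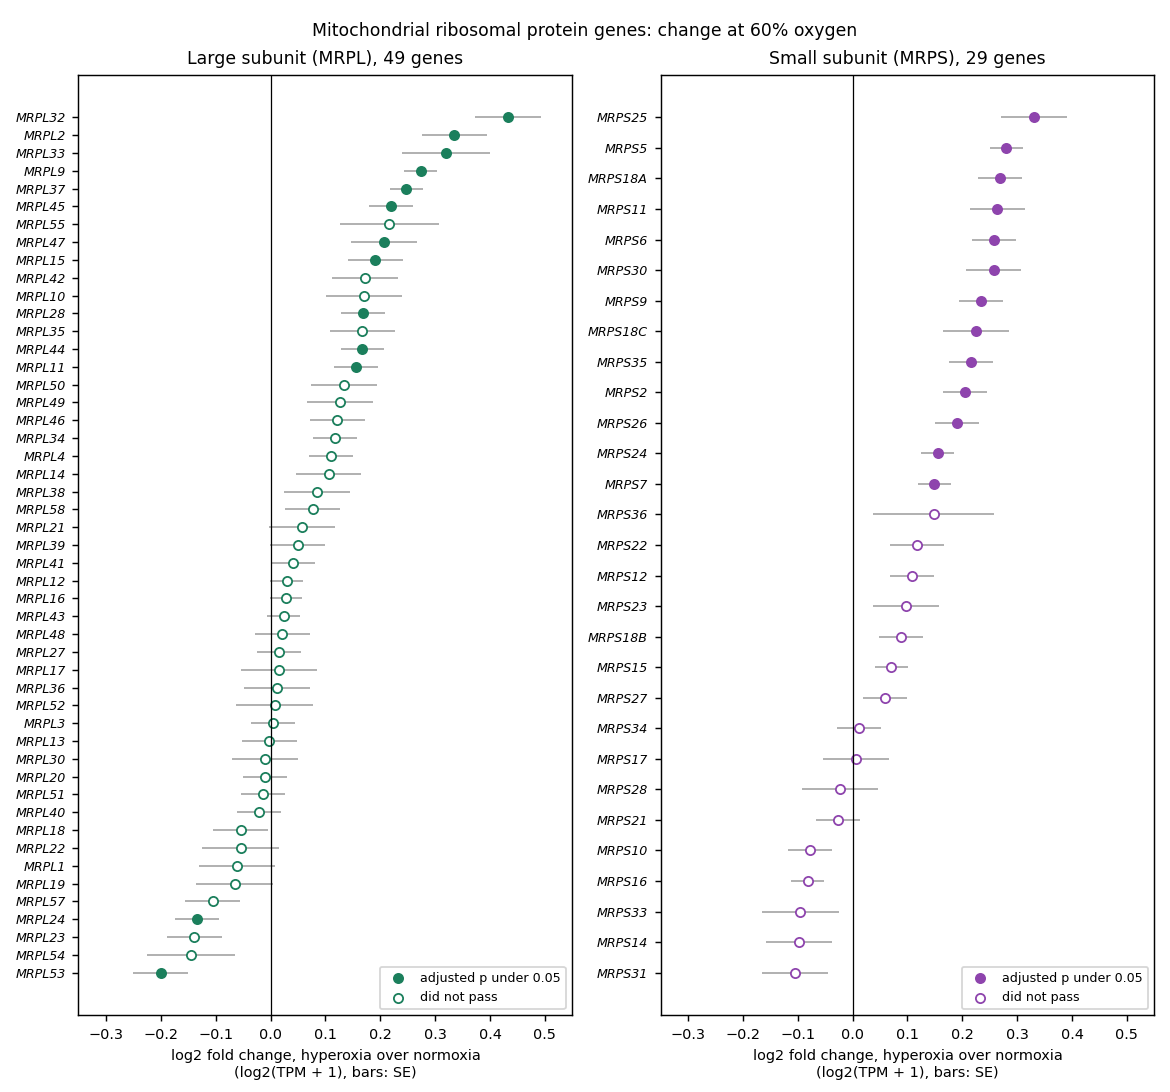
Log2 fold change in hyperoxia over normoxia for each of the 78 genes (horizontal axis, log2(TPM + 1) scale; bars, SE), with MRPL genes left and MRPS genes right. Filled points passed the adjusted p threshold of 0.05; 11 of 49 MRPL genes and 13 of 29 MRPS genes rose, and MRPL53 and MRPL24 fell.

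The share that rose was larger among the genes named for the small subunit. Of 29 MRPS genes, 13 rose (44.8%) and 16 did not pass, with a median difference of 0.12 on the log2 scale. In limma no MRPS gene fell, against 5.63% of all genes tested. A list of 29 genes is too short to set a count of 0 apart from that share. At an unadjusted p under 0.05, 1 MRPS gene was lower, against 1584 of all 14520 genes. By the exact rank-sum test 0 fell, against 3.55% of all genes. With quantile normalization 2 MRPS genes fell, against 8.32% of all genes. Of 49 MRPL genes, 11 rose (22.4%), 2 fell (4.08%) and 36 did not pass, with a median of 0.05. The MRPL median was 0.023 with median-of-ratios scaling and 0.029 with quantile normalization. Symbols do not always follow the place of the protein. MRPS18A and MRPS30 are named for the small subunit but sit in the large one, and MRPS36 is now placed in the oxoglutarate dehydrogenase complex. Grouped by place, 11 of 26 small subunit genes rose and none fell, with a median of 0.10, and 13 of 51 large subunit genes rose and 2 fell, with a median of 0.06. The difference between the subunits was not tested, since the members of a subunit are not replicates.

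**Figure D2:**
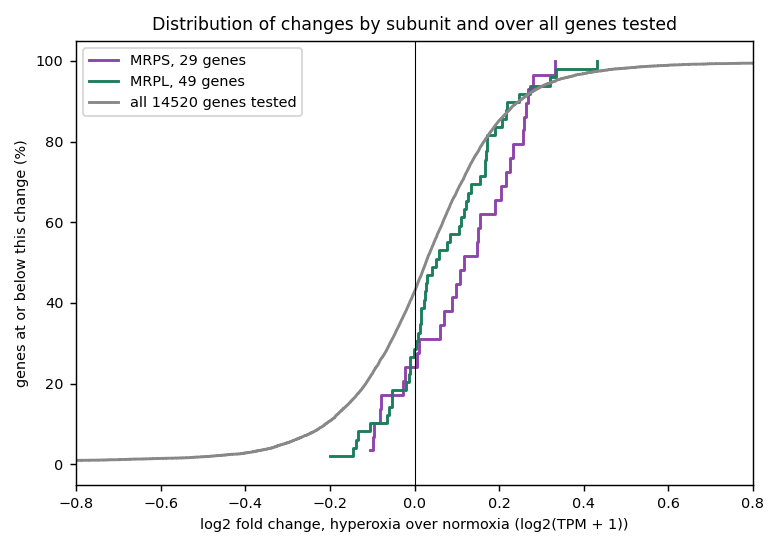
Cumulative share of genes (vertical axis, %) at or below each log2 fold change in hyperoxia over normoxia (horizontal axis, log2(TPM + 1) scale) for 29 MRPS genes, 49 MRPL genes and all 14520 genes tested. The medians were 0.12, 0.05 and 0.03.

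RefSeq promoter windows on GRCh38.p14, which run from 250 bases before to 50 bases after the annotated start, were found for 69 of the 78 members. Of the motifs searched on both strands, the YY1 letters AAGATGGCG were in 13 of 69 member windows (18.8%), against 1.85% of all 27305 windows. The match began in the first 30 bases after the start in 9 of the 69 (13.0%), against 1.10% of all windows. These letters contain ATG, the triplet of a start codon. They were about as frequent among members that rose (4 of 22, 18.2%) as among the others (9 of 47, 19.1%). The 4 windows of members that rose and hold the letters are printed here with the match in capitals. The fifth is that of MRPL53, the member that fell with no overlap between groups, and its capitals mark the ETS core CCGGAAGT. They lie at chr6:43687742-43688041 on the minus strand (MRPS18A), chr5:44808697-44808996 on the plus strand (MRPS30), chr7:43869468-43869767 on the minus strand (MRPS24), chr7:42932126-42932425 on the plus strand (MRPL32) and chr2:74472631-74472930 on the minus strand (MRPL53).
MRPS18A: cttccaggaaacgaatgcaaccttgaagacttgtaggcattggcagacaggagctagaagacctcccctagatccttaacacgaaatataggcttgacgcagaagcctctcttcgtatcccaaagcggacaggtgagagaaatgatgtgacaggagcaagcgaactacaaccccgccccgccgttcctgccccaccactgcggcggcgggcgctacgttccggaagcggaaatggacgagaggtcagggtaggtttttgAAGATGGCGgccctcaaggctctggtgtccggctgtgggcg
MRPS30: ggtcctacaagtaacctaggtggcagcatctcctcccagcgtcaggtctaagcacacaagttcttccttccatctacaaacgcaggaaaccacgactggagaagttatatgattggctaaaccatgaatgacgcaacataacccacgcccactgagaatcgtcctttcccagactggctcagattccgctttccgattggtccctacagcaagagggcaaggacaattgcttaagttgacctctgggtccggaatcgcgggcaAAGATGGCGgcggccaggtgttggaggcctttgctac
MRPS24: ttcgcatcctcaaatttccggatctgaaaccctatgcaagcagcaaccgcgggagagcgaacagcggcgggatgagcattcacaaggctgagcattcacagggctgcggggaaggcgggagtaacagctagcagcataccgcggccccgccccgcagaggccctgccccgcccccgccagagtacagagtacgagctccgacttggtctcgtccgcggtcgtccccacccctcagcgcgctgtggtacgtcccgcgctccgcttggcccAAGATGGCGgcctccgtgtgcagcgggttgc
MRPL32: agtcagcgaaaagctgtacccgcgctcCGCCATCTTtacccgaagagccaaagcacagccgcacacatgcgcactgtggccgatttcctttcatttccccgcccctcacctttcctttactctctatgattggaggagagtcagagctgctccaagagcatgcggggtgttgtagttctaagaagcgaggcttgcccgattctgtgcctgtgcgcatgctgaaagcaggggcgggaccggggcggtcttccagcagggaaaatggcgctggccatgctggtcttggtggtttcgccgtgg
MRPL53: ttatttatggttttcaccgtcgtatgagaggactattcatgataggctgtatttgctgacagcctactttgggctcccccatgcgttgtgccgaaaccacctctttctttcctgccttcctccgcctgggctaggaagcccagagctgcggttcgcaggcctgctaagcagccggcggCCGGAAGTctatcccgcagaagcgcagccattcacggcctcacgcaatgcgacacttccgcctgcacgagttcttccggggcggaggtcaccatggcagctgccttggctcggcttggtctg
In MRPS18A, MRPS30 and MRPS24 the match follows the start closely, and in MRPL32 it lies upstream on the other strand. The ETS core was in 11 of 69 member windows (15.9%), against 4.44% of all, and in 1 of 22 members that rose against 10 of 47 of the others. The E-box CACGTG was in 6 of 69 (8.70%), against 7.43% of all windows. The NRF1 palindrome, GCGCA followed directly by TGCGC, was in 1 of 69 (1.45%), against 1.36% of all. No motif searched contains another. Median GC content was 60.3% in member windows and 58.3% in all windows.

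Among the large subunit genes, MRPL9 had the smallest p. MRPL9, a homolog of bacterial protein L9, ranged from 137 to 144 TPM (median 142) in hyperoxia and from 112 to 120 TPM (median 118) in normoxia. All 6 hyperoxia samples lay above all normoxia samples. MRPL9 rose by 0.27 ± 0.03 on the log2 scale (SE; adjusted p = 3.70e-05, limma with Benjamini-Hochberg).

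MRPL32, a homolog of bacterial L32 whose precursor is cut by a mitochondrial protease before it joins the ribosome, had the largest difference of any member. Its level was 103 to 128 TPM (median 120) in hyperoxia and 79.5 to 91.6 TPM (median 88.5) in normoxia. The groups did not overlap, and MRPL32 rose by 0.43 ± 0.06 (SE; adjusted p = 3.49e-04, limma with Benjamini-Hochberg). MRPL37, which has no bacterial counterpart, was at 154 to 160 TPM (median 158) in hyperoxia and 122 to 141 TPM (median 134) in normoxia. Its groups were also apart, with a difference of 0.25 ± 0.03 (SE; adjusted p = 3.38e-04, limma with Benjamini-Hochberg).

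MRPL2, the homolog of L2, a protein near the peptidyl transferase centre of the bacterial ribosome, was at 96.6 to 104 TPM (median 102) in hyperoxia and 69.5 to 90.4 TPM (median 80.3) in normoxia. The normoxia samples were the more scattered, but the highest of them stayed under the lowest hyperoxia sample. MRPL2 rose by 0.34 ± 0.06 (SE; adjusted p = 0.00226, limma with Benjamini-Hochberg). The other MRPL genes that rose were MRPL11, MRPL15, MRPL28, MRPL33, MRPL44, MRPL45 and MRPL47, by 0.15 (MRPL11) to 0.32 (MRPL33) on the log2 scale, and of these the groups were apart in MRPL11 alone. MRPL45 kept its call under all alternatives, whereas MRPL47 lost it in 8, MRPL11, MRPL28 and MRPL33 in 3 each, and MRPL15 and MRPL44 in 2 each. Without normoxia replicates 4 to 6, MRPL11, MRPL15, MRPL33, MRPL44 and MRPL47 no longer passed, and without normoxia replicates 1 to 3, MRPL28 and MRPL44 did not. MRPL47 was also lost without any one of hyperoxia replicates 2, 3 and 5 (adjusted p = 0.0501 to 0.188 over all its omissions, limma with Benjamini-Hochberg).

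Of genes named for the small subunit, MRPS5 had the smallest p. MRPS5, the homolog of bacterial S5, was at 101 to 112 TPM (median 105) in hyperoxia and 84.0 to 91.0 TPM (median 86.9) in normoxia. The groups were well apart, and MRPS5 rose by 0.28 ± 0.03 (SE; adjusted p = 1.07e-04, limma with Benjamini-Hochberg).

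MRPS6 and MRPS9, homologs of bacterial S6 and S9, gave similar differences. MRPS6 was at 66.2 to 72.8 TPM (median 68.1) in hyperoxia and 52.3 to 62.2 TPM (median 57.7) in normoxia. MRPS9 was at 59.0 to 67.3 TPM (median 64.4) in hyperoxia and 51.3 to 56.9 TPM (median 54.0) in normoxia. In both genes every hyperoxia sample was above every normoxia sample. MRPS6 rose by 0.26 ± 0.04 and MRPS9 by 0.23 ± 0.04 (SE; adjusted p = 0.00141 and 0.00169, limma with Benjamini-Hochberg).

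MRPS25, which has no bacterial counterpart, was at 62.5 to 73.2 TPM (median 68.1) in hyperoxia and 46.6 to 60.0 TPM (median 53.0) in normoxia. Without overlap between groups, MRPS25 rose by 0.33 ± 0.06 (SE; adjusted p = 0.00221, limma with Benjamini-Hochberg), the largest difference among the MRPS genes. MRPS24, the small subunit protein homologous to bacterial S3 and the highest MRPS gene, was at 282 to 307 TPM (median 300) in hyperoxia and 254 to 281 TPM (median 265) in normoxia. Its groups came close without meeting, and the difference was 0.15 ± 0.03 (SE; adjusted p = 0.00600, limma with Benjamini-Hochberg). The other MRPS genes that rose without being described one by one were MRPS2, MRPS7, MRPS11, MRPS26 and MRPS35, by 0.15 (MRPS7) to 0.26 (MRPS11). MRPS2 and MRPS26 lost their calls without normoxia replicates 1 to 3, and MRPS7 with median-of-ratios scaling.

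The 3 genes MRPS18A, MRPS18B and MRPS18C encode related proteins, of which the first sits in the large subunit and the other two in the small one. MRPS18A was at 58.6 to 65.3 TPM (median 63.7) in hyperoxia and 48.5 to 56.8 TPM (median 52.8) in normoxia, a difference of 0.27 ± 0.04 with no overlap (SE; adjusted p = 0.00123, limma with Benjamini-Hochberg). MRPS18C was at 59.2 to 74.6 TPM (median 65.9) in hyperoxia and 51.9 to 67.1 TPM (median 55.1) in normoxia. Its groups overlapped, and its difference of 0.23 ± 0.06 was the last inside the threshold (SE; adjusted p = 0.0293, limma with Benjamini-Hochberg). The call of MRPS18C was lost without any one of hyperoxia replicates 1, 2 and 5 and normoxia replicates 1, 4, 5 and 6, or without normoxia replicates 4 to 6 (adjusted p = 0.0523 to 0.234, limma with Benjamini-Hochberg). MRPS18B was at 94.8 to 103 TPM (median 99.8) in hyperoxia and 86.5 to 98.9 TPM (median 95.0) in normoxia, overlapping ranges that gave 0.09 ± 0.04 (SE; adjusted p = 0.160, limma with Benjamini-Hochberg).

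MRPS30, the other MRPS-named protein of the large subunit, was at 40.3 to 46.4 TPM (median 43.2) in hyperoxia and 32.4 to 39.6 TPM (median 36.1) in normoxia. The ranges just missed each other, and MRPS30 rose by 0.26 ± 0.05 (SE; adjusted p = 0.00319, limma with Benjamini-Hochberg). MRPS36 did not pass. It was at 21.4 to 32.5 TPM (median 26.7) in hyperoxia and 20.2 to 31.5 TPM (median 21.8) in normoxia, with the largest standard error of any member (0.15 ± 0.11; adjusted p = 0.417, limma with Benjamini-Hochberg).

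**Figure D3:**
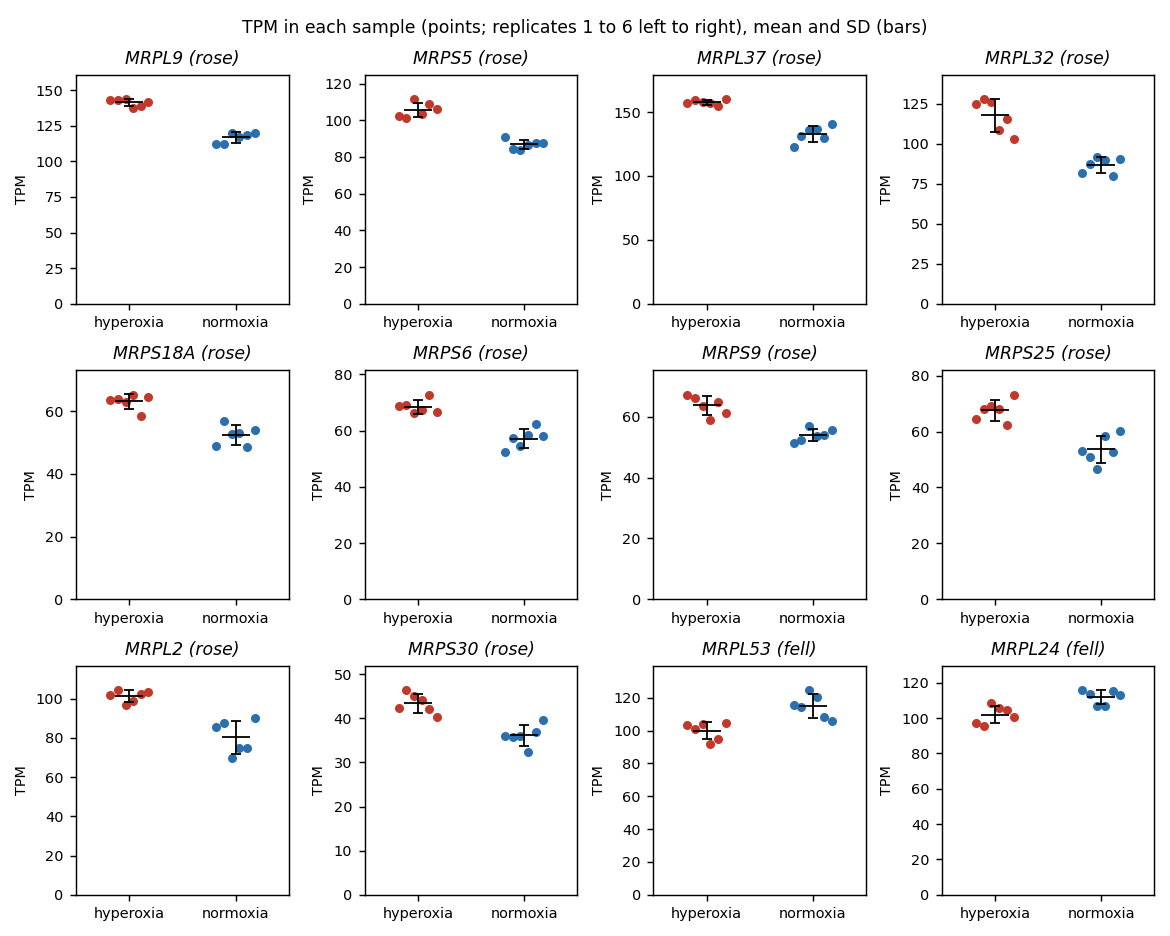
TPM (vertical axes, from 0) in each of 6 hyperoxia samples (left) and 6 normoxia samples (right) for the 10 members that rose with the smallest p and the 2 that fell; bars show mean and SD. The groups are apart in every panel except MRPL24, where the highest hyperoxia sample (108 TPM) is above the lowest normoxia sample (107 TPM).

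Only MRPL53 and MRPL24 fell. MRPL53, a protein without bacterial counterpart at the stalk on the factor-binding side, was at 92.1 to 105 TPM (median 102) in hyperoxia and 106 to 125 TPM (median 115) in normoxia. Every hyperoxia sample was below every normoxia sample, and MRPL53 fell by 12.9% (log2 difference -0.20 ± 0.05, SE; adjusted p = 0.0107, limma with Benjamini-Hochberg). MRPL24, a homolog of bacterial L24 near the exit of the polypeptide tunnel, was at 95.6 to 108 TPM (median 103) in hyperoxia and 107 to 116 TPM (median 113) in normoxia. Its ranges touched, and the log2 difference was -0.13 ± 0.04 (SE; adjusted p = 0.0274, limma with Benjamini-Hochberg). Without normoxia replicates 1 to 3 neither decrease passed (MRPL53, adjusted p = 0.113, limma with Benjamini-Hochberg), and MRPL24 also lost its call without normoxia replicates 4 to 6. MRPL24 further lost it when any of 6 single samples was left out (hyperoxia replicates 1 and 2, normoxia replicates 1, 2, 5 and 6), and over all these omissions its adjusted p was 0.0517 to 0.115 (limma with Benjamini-Hochberg).

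Among the 52 members that did not pass, differences ran from -0.14 to 0.22 on the log2 scale. The largest were MRPL55, MRPL42 and MRPL10. MRPL55 was at 42.0 to 56.0 TPM (median 51.8) in hyperoxia and 35.8 to 52.4 TPM (median 41.0) in normoxia, with 0.22 ± 0.09 (SE; adjusted p = 0.122, limma with Benjamini-Hochberg). MRPL42, the first member outside the threshold, was at 80.0 to 101 TPM (median 87.5) in hyperoxia and 74.7 to 87.6 TPM (median 76.6) in normoxia, with 0.17 ± 0.06 (SE; adjusted p = 0.0540, limma with Benjamini-Hochberg). MRPL10, the protein at the base of the L12 stalk, was at 59.9 to 73.9 TPM (median 66.8) in hyperoxia and 51.7 to 69.2 TPM (median 59.9) in normoxia, with 0.17 ± 0.07 (SE; adjusted p = 0.103, limma with Benjamini-Hochberg). In each of these 3 genes the groups overlapped. Of all 52, these 3 included, 13 were higher and 3 lower at an unadjusted p under 0.05. With the called members counted too, 37 of 78 were higher and 5 lower at that p. The counts over all 14520 genes tested were 2867 higher and 1584 lower.

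The most abundant members of the large subunit showed small differences. MRPL51 was at 332 to 367 TPM (median 347) in hyperoxia and 323 to 378 TPM (median 350) in normoxia, a difference of -0.01 ± 0.04 (SE; adjusted p = 0.854, limma with Benjamini-Hochberg). MRPL41 was at 285 to 327 TPM (median 286) in hyperoxia and 267 to 314 TPM (median 287) in normoxia, a difference of 0.04 ± 0.04 (SE; adjusted p = 0.574, limma with Benjamini-Hochberg). Neither protein has a bacterial counterpart. Of the least abundant, MRPL50 gave 0.13 ± 0.06, MRPS14 gave -0.10 ± 0.06 and MRPL30 gave -0.01 ± 0.06 on the log2 scale (SE; adjusted p = 0.136, 0.317 and 0.939, limma with Benjamini-Hochberg). In all, 20 members were within 0.05 of 0 on the log2 scale.

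Both MRPL12 and MRPL58 have reported roles beyond a structural part. MRPL12, the stalk protein, also binds the mitochondrial RNA polymerase in some studies. It was at 185 to 191 TPM (median 190) in hyperoxia and 178 to 193 TPM (median 184) in normoxia, a difference of 0.03 ± 0.03 (SE; adjusted p = 0.498, limma with Benjamini-Hochberg). MRPL58, a peptidyl-tRNA hydrolase that can free stalled ribosomes, was at 58.9 to 67.8 TPM (median 61.5) in hyperoxia and 52.5 to 61.7 TPM (median 59.6) in normoxia. The groups overlapped in both genes, and MRPL58 gave 0.08 ± 0.05 (SE; adjusted p = 0.279, limma with Benjamini-Hochberg).

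By origin, 8 of 30 large subunit homologs of bacterial proteins rose and 1 fell, with a median log2 difference of 0.04. Of 19 large subunit proteins without bacterial counterpart, 3 rose and 1 fell, with a median of 0.05. Of the small subunit, 8 of 17 homologs of bacterial proteins rose and none fell, with a median of 0.11, and 3 of 9 without bacterial counterpart rose and none fell, with a median of 0.10. Within each subunit the medians of both origins were close. Over all genes tested 11.7% rose and 5.63% fell, and the shares in several of these small groups, such as 3 of 19, lie near that. By place in the large subunit, none of 7 central protuberance genes passed in limma (median 0.02), 2 of them were higher at an unadjusted p under 0.05, and 0 passed the exact rank-sum test. Further, 1 of 6 stalk genes rose (MRPL11) and 1 fell (MRPL53), with a median of -0.02. Of 8 genes at the polypeptide exit tunnel, MRPL44, MRPL45 and MRPL47 rose and MRPL24 fell, with a median of 0.03. The calls of MRPL11, MRPL24, MRPL44, MRPL47 and MRPL53 were each lost under at least 1 alternative.

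In 16 members every hyperoxia sample lay above every normoxia sample, 5 of them MRPL and 11 MRPS, against 6.20% of all genes tested. In 1 member, MRPL53, every hyperoxia sample lay below, against 2.58% of all genes tested.

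Summed over genes, transcripts of both subunits were higher in hyperoxia. The 49 MRPL genes summed to 4883 to 5149 TPM (median 4983) in hyperoxia and 4635 to 4870 TPM (median 4762) in normoxia. Means were 5007 ± 109 and 4750 ± 78.2 TPM (SD, n = 6 each), a sum 5.40% larger in hyperoxia. The 29 MRPS genes summed to 2639 to 2781 TPM (median 2719) in hyperoxia and 2453 to 2583 TPM (median 2499) in normoxia. Means were 2714 ± 53.7 and 2501 ± 47.2 TPM (SD, n = 6 each), 8.50% larger in hyperoxia. In neither sum did the groups overlap, although the MRPL sums of hyperoxia replicate 4 (4883 TPM) and normoxia replicate 3 (4870 TPM) nearly met.

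The ratio of the MRPL sum to the MRPS sum was 1.82 to 1.87 (median 1.85) in hyperoxia and 1.89 to 1.94 (median 1.89) in normoxia, with no overlap. Its means were 1.84 ± 0.0158 and 1.90 ± 0.0195 (SD, n = 6 each). With the genes grouped by place of the protein, the ratio was 1.95 to 2.01 (median 1.99) in hyperoxia and 2.01 to 2.07 (median 2.02) in normoxia, ranges that meet when rounded but do not overlap. No p is given for these sums, which are set by the choice of members.

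**Figure D4:**
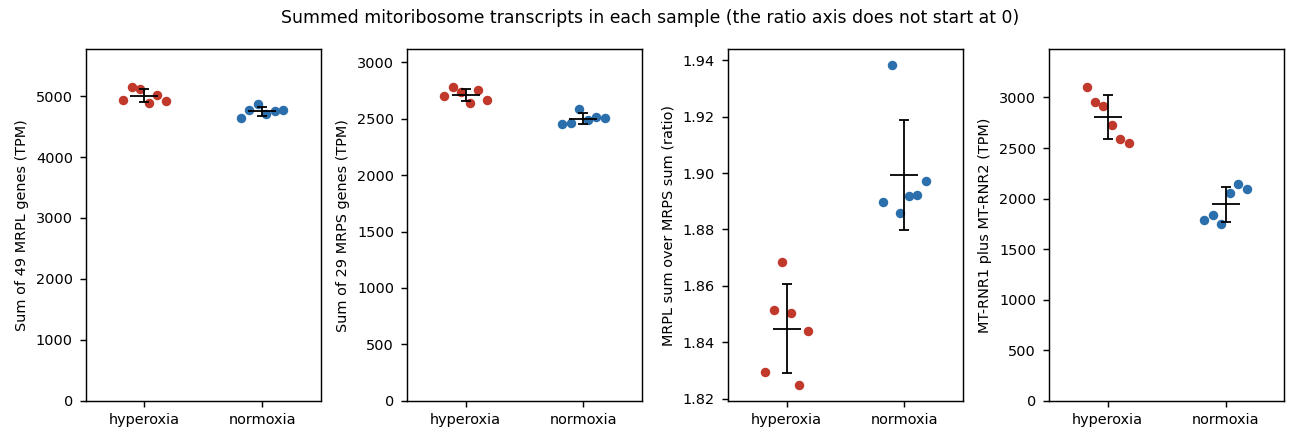
Sum of the 49 MRPL genes, sum of the 29 MRPS genes, their ratio, and the sum of both mitochondrial ribosomal RNAs in each hyperoxia sample (left in each panel) and normoxia sample (right); vertical axes in TPM, the third a ratio whose axis does not start at 0; bars, mean and SD of 6 samples. The groups are apart in all 4 panels, and the ratio of normoxia replicate 2 (1.94) stands above the other normoxia samples.

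Both mitochondrial ribosomal RNAs rose as well, with larger log2 differences than those of the members. MT-RNR1, the small subunit RNA, was at 839 to 1020 TPM (median 926) in hyperoxia and 521 to 764 TPM (median 635) in normoxia, a difference of 0.56 ± 0.10 on the log2 scale (SE; adjusted p = 0.00265, limma with Benjamini-Hochberg). MT-RNR2, the large subunit RNA, was at 1710 to 2140 TPM (median 1880) in hyperoxia and 1220 to 1380 TPM (median 1310) in normoxia, a difference of 0.52 ± 0.05 (SE; adjusted p = 2.22e-05, limma with Benjamini-Hochberg). The study's design text describes removal of ribosomal RNA before library preparation, whereas the extraction label names another library kit. Which applies is not settled, so whether these values are of what remained after such removal is unknown. The 2 sets of normoxia samples differed here too, with 1751 to 1840 TPM summed over both RNAs in replicates 1 to 3 and 2058 to 2141 TPM in replicates 4 to 6. How much of the difference between groups came from the library preparation was not tested. All genes of mitochondrial DNA together took 6.92% to 7.57% of TPM in hyperoxia and 7.22% to 8.19% in normoxia, with overlap.

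Other genes of mitochondrial gene expression were described from 6 lists, which hold mitoribosomal proteins with other names, both ribosomal RNAs, assembly factors, translation factors, RNA handling and regulators. Together 21 of 79 rose (26.6%, against 11.7% of all genes tested), 3 fell (3.80%, against 5.63%) and the median log2 difference was 0.10. Without normoxia replicates 4 to 6, 12 of them rose, beside 6.89% of all genes, and without normoxia replicates 1 to 3, 9 rose, beside 5.43% of all genes. Of 6 genes listed as mitoribosomal proteins with other names, AURKAIP1, DAP3 and LACTB rose by 0.19, 0.16 and 0.22 (adjusted p = 0.00123, 0.0117 and 0.0291, limma with Benjamini-Hochberg). AURKAIP1 and DAP3 are small subunit proteins, whereas LACTB, listed for a ribosomal protein symbol it once bore, is a mitochondrial serine protease. The call of LACTB was lost without either normoxia set or any one of hyperoxia replicates 1 and 5 and normoxia replicates 1, 2 and 4 (adjusted p = 0.0524 to 0.198, limma with Benjamini-Hochberg). That of DAP3 was lost without normoxia replicates 4 to 6 (adjusted p = 0.103, limma with Benjamini-Hochberg).

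Of 26 assembly factors 7 rose (26.9%, against 11.7% of all genes tested) and none fell in limma (against 5.63%), with a median of 0.12. At an unadjusted p under 0.05, 1 was lower, and 0 fell by the exact rank-sum test. MRM3, which methylates the large ribosomal RNA, was at 31.4 to 36.6 TPM (median 34.4) in hyperoxia and 27.1 to 30.2 TPM (median 28.3) in normoxia, a difference of 0.25 ± 0.04 (SE; adjusted p = 0.00226, limma with Benjamini-Hochberg). MALSU1 and GTPBP10, both factors of large subunit assembly, rose by 0.21 ± 0.04 and 0.32 ± 0.07 (SE; adjusted p = 0.00330 and 0.00640, limma with Benjamini-Hochberg). In all 3 genes the groups were apart, though MALSU1 lost its call without normoxia replicates 1 to 3 and GTPBP10 without normoxia replicates 4 to 6 (adjusted p = 0.0528 and 0.0858, limma with Benjamini-Hochberg).

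Of 13 translation factors 3 rose (23.1%, against 11.7% of all genes tested) and 1 fell (7.69%, against 5.63%), with a median of 0.09. TUFM, the elongation factor that delivers tRNA, was at 215 to 229 TPM (median 220) in hyperoxia and 181 to 220 TPM (median 197) in normoxia, a difference of 0.15 ± 0.05 (SE; adjusted p = 0.0341, limma with Benjamini-Hochberg). GFM2 and MRRF act together in splitting ribosomes after termination, and moved in opposite directions. GFM2 was at 28.7 to 34.1 TPM (median 30.2) in hyperoxia and 24.2 to 29 TPM (median 26.6) in normoxia, a difference of 0.19 ± 0.05 (SE; adjusted p = 0.0206, limma with Benjamini-Hochberg). MRRF was at 45.5 to 52.2 TPM (median 49.2) in hyperoxia and 53.4 to 63.4 TPM (median 56.3) in normoxia, a difference of -0.20 ± 0.05 (SE; adjusted p = 0.0110, limma with Benjamini-Hochberg). Without normoxia replicates 1 to 3 none of these 3 calls remained (MRRF, adjusted p = 0.0878, limma with Benjamini-Hochberg). GFM2 lost its call without either normoxia set (adjusted p = 0.0766 and 0.0999, limma with Benjamini-Hochberg). TUFM also lost its call without any one of hyperoxia replicates 1, 2, 4 and 5 and normoxia replicates 1, 2, 3 and 5 (adjusted p = 0.0540 to 0.290 over all omissions, limma with Benjamini-Hochberg).

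In mitochondrial transcription and RNA handling, 6 of 22 genes rose in limma (27.3%, against 11.7% of all genes tested), with a median of 0.10. None fell in limma, against 5.63% of all genes tested, and 0 were lower at an unadjusted p under 0.05 or by the exact rank-sum test. TBRG4, which stabilises certain mitochondrial messenger RNAs, was at 131 to 143 TPM (median 136) in hyperoxia and 108 to 117 TPM (median 113) in normoxia, and rose by 0.28 ± 0.03 (SE; adjusted p = 1.11e-04, limma with Benjamini-Hochberg). SUPV3L1, the helicase of mitochondrial RNA decay, and FASTKD5, which takes part in RNA processing, both rose by 0.23 ± 0.05 (SE; adjusted p = 0.00432 and 0.0100, limma with Benjamini-Hochberg). TFAM, the factor that packages mitochondrial DNA and starts its transcription, rose by 0.17 ± 0.06, and POLRMT, the RNA polymerase, gave 0.07 ± 0.05 without passing (SE; adjusted p = 0.0471 and 0.452, limma with Benjamini-Hochberg). The call of TFAM was lost without either normoxia set or any one of hyperoxia replicates 1, 2, 3 and 5 and normoxia replicates 1, 3, 4, 5 and 6 (adjusted p = 0.0670 to 0.206, limma with Benjamini-Hochberg). FASTKD5 lost its call without either normoxia set (adjusted p = 0.0619 and 0.0708, limma with Benjamini-Hochberg), and SUPV3L1 without normoxia replicates 1 to 3 (adjusted p = 0.0638, limma with Benjamini-Hochberg).

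Of 10 regulators of mitochondrial biogenesis 2, NRF1 and MYC, fell in limma (20%, against 5.63% of all genes tested). None rose in limma, against 11.7% of all genes tested, at an unadjusted p under 0.05 (0 genes) or by the exact rank-sum test (0 genes). A list of 10 genes is too short to set a count of 0 apart from that share. NRF1, a transcription factor of nuclear genes for mitochondria, was at 10.8 to 13.2 TPM (median 12.3) in hyperoxia and 13.5 to 19.4 TPM (median 14.6) in normoxia. Its groups were just apart, the call was lost without normoxia replicates 4 to 6 (adjusted p = 0.0987, limma with Benjamini-Hochberg), and the full set gave a difference of -0.29 ± 0.08 (SE; adjusted p = 0.0208, limma with Benjamini-Hochberg). MYC was at 36.5 to 90.6 TPM (median 60.2) in hyperoxia and 139 to 166 TPM (median 151) in normoxia, a difference of -1.31 ± 0.16 (SE; adjusted p = 1.73e-04, limma with Benjamini-Hochberg). In the authors' deposited table a group mean or fold change of MYC disagrees with other values of the same row, so this row is uncertain. PPARGC1A, a transcriptional coactivator, was low, at 1.28 to 3.52 TPM (median 1.54) in hyperoxia and 1.07 to 1.49 TPM (median 1.29) in normoxia. Its highest value was that of hyperoxia replicate 1, and the log2(TPM + 1) scale understates changes at such levels. PPARGC1A gave 0.30 ± 0.16, and GABPA, the ETS factor, gave -0.07 ± 0.04, and neither passed (SE; adjusted p = 0.211 and 0.308, limma with Benjamini-Hochberg).

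**Figure D5:**
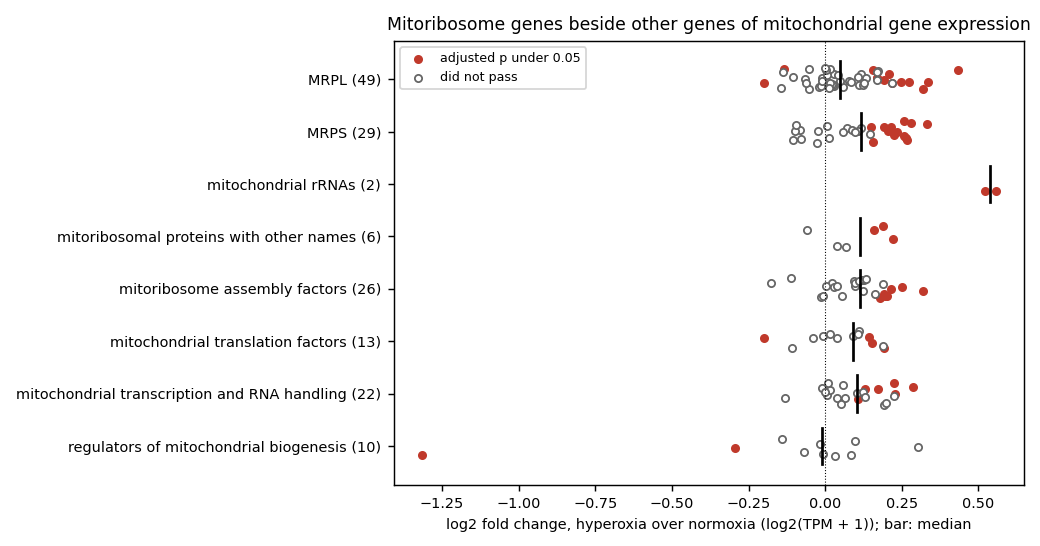
Log2 fold change in hyperoxia over normoxia (horizontal axis, log2(TPM + 1) scale) of each gene in 8 lists (rows, with the number of genes); filled points passed the adjusted p threshold of 0.05 and bars are medians. The median was 0.12 for MRPS, 0.05 for MRPL, 0.12 for assembly factors and 0.54 for the 2 ribosomal RNAs.

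The authors' deposited table carries the result of the authors' own test. With its adjusted p under 0.05, 22 members were higher, against 15.7% of all genes tested here, and 4 were lower, against 14.3%. The authors' deposited call column marked 0 members, against 0.358% of all genes tested here. Of the 24 members that rose, 21 were also higher there, and 3 (MRPL11, MRPL28 and MRPS18C) rose here only. Both that fell were lower there, as were MRPL23 and the small subunit gene MRPS10, neither of which passed here. MRPL10 was higher there only. The deposited log2 fold change was below that from TPM in 68 members. Across all 78 members the median size of the difference, regardless of sign, was 0.03, and in 6 the size was over 0.1.

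Fewer members rose with median-of-ratios scaling or without either set of 3 normoxia samples. Under the median-of-ratios scaling 6 MRPL and 10 MRPS genes rose, and MRPS24 was among those that no longer passed. MRPS24 was also lost without normoxia replicates 4 to 6 (adjusted p = 0.0557, limma with Benjamini-Hochberg). Without normoxia replicates 4 to 6, 19 members rose, 7 of them MRPL, and 1 fell, while 6.89% of all genes rose and 2.58% fell. Without normoxia replicates 1 to 3, 21 members rose and none fell, while 5.43% of all genes rose and 3.05% fell. Of the 26 called members, 13 kept their call under all 25 alternatives run, among them MRPL9, MRPL32, MRPS5 and MRPS25.

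Some members share sequence with other genes, and how shared reads were counted is not given in the sources used here. In GENCODE 29, exons of 32 members overlap an exon of another gene expressed at 1 TPM or more, 11 on the same strand and 21 on the opposite one. Among members described one by one these are MRPS5 (with ZNF514), MRPS6 (with SLC5A3), MRPL30 (with AC079447.1) and MRPL53 (with CCDC142) on the same strand. On the opposite strand they are MRPL2 (with KLC4), MRPL9 (with OAZ3), MRPL32 (with PSMA2), MRPL37 (with SSBP3, CYB5RL and AL357673.1), MRPL51 (with NCAPD2), MRPS14 (with CACYBP), MRPS18C (with ABRAXAS1) and MRPS25 (with NR2C2). Of the other members that rose, MRPL28 (with TMEM8A) and MRPL33 (with BABAM2) overlap on the same strand. MRPL11 (with PELI3), MRPL47 (with ACTL6A), MRPS2 (with C9orf116) and MRPS7 (with GGA3 and MIF4GD) do so on the opposite one. Pseudogene rows exist for 35 members, 76 in all, of which 2 reached 1 TPM, and these rows summed to 29.7% of the level of the parent gene for MRPS31 and 13.0% for MRPL45. These shares do not measure misassigned reads, and how far shared reads affect the values of the members named here was not tested.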

How the data were processed

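RNA of 12 samples was sequenced. Per the file headers, the deposited per-sample values are TPM. The authors' deposited table also holds group means in TPM, a fold change (a ratio on the linear scale) with its log2 value, and for each gene a p-value, raw and adjusted. Per the submitters' processing notes, HTSeq 0.9.1 counted reads and edgeR 3.16.5 normalised them. The notes list a mouse build, but all identifiers are human. The extraction label names one library kit and the design text another with removal of ribosomal RNA. Aligner, annotation and computation of TPM: not given in the sources used here. In 78 rows, none of a member, deposited means or fold changes disagree beyond 1e-05.

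Groups came from the treatment labels. limma 3.58.1 in R 4.3.3 (lmFit, eBayes with trend, two-sided) was run on log2(TPM + 1) for 14520 genes with a mean of at least 1 TPM, with Benjamini-Hochberg adjustment and a threshold of 0.05, after a test on simulated data. The log2(TPM + 1) scale understates changes of low genes. Described one by one are the 10 members with the smallest p in each direction, the 3 highest and 3 lowest by mean, the 3 largest differences that missed, 7 set by name, and up to 3 genes with the smallest p from each other list. Members and lists were chosen with earlier results of these data known. Alternatives covered pseudocount, filter, scaling, variance model, a rank-sum test (exact), blocking by replicate number and left-out samples; omission of normoxia replicates 1 to 3 was chosen after seeing the data. Symbols were matched to RefSeq promoters on GRCh38.p14 and exons compared in GENCODE 29.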

Additional observations from a re-analysis of the deposited data

Results flagged for a closer look

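In each group of 6 samples the highest and lowest value of each gene described, and of the summed levels, was compared with its nearest neighbour as the gap over the group's range. Of 102 groups, 8 had a sample past Dixon's 95% critical value. Chance gives about 1 in 20, or 5.1 of 102.

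MRPS18A was lowest in hyperoxia replicate 5, at 58.6 TPM, against 63.0 to 65.3 TPM in the other hyperoxia samples. MRPS14 was highest in the same sample, at 20.4 TPM, against 16.3 to 17.2 TPM. MRPS18C was highest in normoxia replicate 3, at 67.1 TPM, against 51.9 to 57.0 TPM in the other normoxia samples. MRPL58 was lowest in normoxia replicate 1, at 52.5 TPM, against 58.6 to 61.7 TPM. The ratio of the MRPL sum to the MRPS sum was highest in normoxia replicate 2, at 1.94, against 1.89 to 1.90.

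Outside the members, MALSU1 (81.6 TPM against 75.5 to 77.0) and NRF1 (19.4 TPM against 13.5 to 15.5) were highest in normoxia replicate 6. GABPA was highest in hyperoxia replicate 2, at 21.0 TPM, against 18.8 to 19.4 TPM.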

How the results depend on the processing

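No member or other gene that passed reversed its direction under the 25 alternatives, while members near 0 such as MRPL51 and MRPL30 changed sign in some. The members' median log2 difference stayed between 0.060 and 0.096, against 0.003 to 0.038 over all genes. Over all genes the number that rose was 1698, but 1000 without normoxia replicates 4 to 6 and 788 without normoxia replicates 1 to 3. The number that fell was 818, but 1235 with median-of-ratios scaling, 515 with the exact rank-sum test, 375 without normoxia replicates 4 to 6 and 443 without normoxia replicates 1 to 3. Of members, 2 fell, but 5 with quantile normalization, 1 with the rank-sum test, 1 without normoxia replicates 4 to 6 and 0 without normoxia replicates 1 to 3. Of MRPL genes, 11 rose, but 6 with median-of-ratios scaling and 7 without normoxia replicates 4 to 6, their median of 0.050 was 0.023 with median-of-ratios scaling and 0.029 with quantile normalization, and the 2 that fell were 1, 1 and 0 with the rank-sum test and without either normoxia set. Of MRPS genes none fell, but 2 with quantile normalization. Of the other genes of mitochondrial gene expression 21 rose and 3 fell, but 12 rose without normoxia replicates 4 to 6, 9 rose without normoxia replicates 1 to 3, and 5 fell with either scaling. With single samples left out, 22 to 26 members rose and 1 to 2 fell, 1 to 2 MRPL genes fell, 0 to 1 MRPS genes fell, and the MRPS median was 0.095 to 0.155. Fits without samples hold fewer samples by construction, and otherwise the cause was not tested. MRPS18C lost its call in 12 alternatives, MRPL24 in 10 and MRPL47 in 8.

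Same-numbered samples did not deviate together, with correlations from -0.117 to 0.017, and only replicate 3 correlated best with its own number. No pairing by number was seen in the values, but they cannot show whether same-numbered samples were handled together. With the replicate number as a block, 25 members rose and 2 fell, and over all genes 1656 rose and 889 fell.

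Depth is unknown, so the precision of single values rests on the spread between 6 samples. A member that did not pass is not shown to be without change.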

Other observations

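Members that rose had longer deposited transcript lengths, with a median of 1537 bases, than members that did not pass, at 1187 bases. Their median level was also higher, at 92.1 TPM against 75.5 TPM. Of 31 members at or above 100 TPM, 10 rose (32.3%) and 2 fell (6.45%), and of 47 members under 100 TPM, 14 rose (29.8%) and none fell. The shares that rose were thus close at both levels. Among all genes tested 11.7% rose and 5.63% fell. The members as a whole have short transcripts, with a median of 1334 bases against 2711 bases over all genes tested. These are descriptions with no test.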
